A study of Homo sapiens with 31 samples.

Results

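The 10 genes described here are direct transcriptional targets of the tumour suppressor p53 whose products act in DNA repair, deoxynucleotide supply, RNA regulation and mitochondrial metabolism: XPC, DDB2, POLH, RRM2B, ZMAT3, AEN, SPATA18, FDXR, TRIAP1 and TP53I3. They were chosen by gene symbol. Each symbol matched 1 row, so they make up 10 of the 74834 rows in the table of normalized read counts, and 10 of the 10 were among the 16259 rows with a mean of at least 10 that were tested. The counts come from H460, an established line of human non-small cell lung cancer cells, sampled after 6 h in culture with the agents. Untreated cells served as Control (n = 4). B87 was 1 µM BAY87-2243, a blocker of mitochondrial complex I (n = 4), and DMKG was 5 mM dimethyl α-ketoglutarate, a membrane-permeable form of a Krebs cycle metabolite (n = 4). B87+DMKG received both (n = 4). Nutlin-3 at 30 µM (n = 3) fills the pocket of MDM2 that p53 binds, and Rita at 50 µM (n = 4) is a compound reported to bind p53 itself. The triple treatments, B87+DMKG+Nutlin-3 and B87+DMKG+Rita, combined the same doses (n = 4 each). All groups are the same single cell line, no vehicle group is named in the labels, and each library was made from 2 pooled wells. The labels do not say that replicates were separate cultures, so p-values measure the spread between these libraries, which may be technical.

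In an unstressed cell, p53 is bound by the ubiquitin ligase MDM2 and degraded. When that contact is broken, p53 accumulates, binds response elements made of a pair of half-sites, and raises transcription of its target genes. The genes best known for this arrest the cell cycle or start apoptosis, and AEN too takes part in apoptosis. The genes described here recognise ultraviolet lesions (XPC, DDB2), copy past them (POLH), supply deoxynucleotides (RRM2B), bind or degrade RNA and DNA (ZMAT3, AEN), or act in or on mitochondria and redox metabolism (SPATA18, FDXR, TRIAP1, TP53I3).

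Because the members were grouped as p53 targets, the sequence around their start sites was searched for the p53 half-site consensus, as 2 half-sites of 10 bases with a spacer of 0 or 1 base, on both strands. RefSeq windows (GRCh38.p14) of 250 bases before to 50 bases after the start were found for 9 members (12 windows), and RRM2B had no entry. The best matches of 4 members are shown because these genes had some of the closest matches and differed in their response, with the half-sites in capitals and flanking or spacer bases in lower case.
DDB2: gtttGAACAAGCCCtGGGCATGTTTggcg
AEN: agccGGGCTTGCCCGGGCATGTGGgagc
XPC: agtgGAATTTGCCCAGACAAGCAAcatg
FDXR: gcccGGGCAGGAGCGGGCTTGCCCtgcg
The DDB2 site (chr11:47214979-47214999, plus strand) begins 5 bases after the start site in 1 of the gene's 2 windows. It matched the consensus with 0 mismatches of 20 bases, as did 0.0199% of 35116 windows of the same length. The best match in the other DDB2 window had 5 mismatches, which 85.6% of windows equalled or bettered. The AEN site (chr15:88621306-88621325, plus strand) had 2 mismatches, which 1.34% of windows equalled or bettered. The XPC site (chr3:14178570-14178589, minus strand) and the FDXR site (chr17:74872996-74873015, minus strand) had 3 mismatches, a match that 9.75% of windows reached. The best match of SPATA18 also had 3 mismatches. ZMAT3 and TRIAP1 had 4 mismatches (41.3% of windows), TP53I3 had 5 (85.6%) and POLH had 6 (99.4%), matches that most or many windows hold. A half-site without a mismatch was present in 6.63% of all windows, and in those of DDB2, AEN and FDXR among the members. The letters CATG at the core of the DDB2 and AEN sites were present in 54.9% of windows. A match describes letters in a window of 300 bases and says nothing of binding.

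The libraries held 33.4 M to 82.5 M reads (median 63.1 M) as recovered from the table, and whether such a read is a whole read or 1 end of a pair is not given in the sources used here. Epithelial keratins were high (KRT8 from 65124 to 139550 normalized read counts), although CDH1 lay between 0 and 8.21. The 5 epithelial markers summed to 245630 to 279910 in Control, 346820 to 416560 in B87+DMKG+Nutlin-3 and 345490 to 393490 in B87+DMKG+Rita, so the triple treatments lay above Control. Some fibroblast genes were also present, with COL1A1 between 385 and 947, COL3A1 between 356 and 699 and PDGFRB between 109 and 282. COL1A2 reached at most 4.93 and DCN 24.9. The 5 fibroblast markers summed to 1153 to 1307 in Control and 1594 to 1766 in B87+DMKG+Rita. DMKG (1354 to 1610), Rita (1387 to 1502) and B87+DMKG+Nutlin-3 (1440 to 1620) also lay above Control, and the other groups overlapped it. Of the leukocyte markers, PTPRC reached at most 7.80 and CD3E 1.75, and their sum, most of it CD14, was 203 to 246 in Control, 111 to 134 in Nutlin-3 and 58.2 to 94.9 in B87+DMKG. Endothelial markers summed to 9.55 to 21.4 in Control and 32 to 66.0 in B87+DMKG, with PECAM1 at most 3.51. The share of reads from mitochondrially encoded genes was 1.49% to 2.15% in Control, 2.42% to 5.39% in Nutlin-3, 2.69% to 4.76% in Rita, 2.24% to 7.51% in B87+DMKG, 3.34% to 3.67% in B87+DMKG+Nutlin-3 and 2.47% to 3.33% in B87+DMKG+Rita, all above Control. The part of these markers and shares in the results was not tested. In DMKG, libraries 1 and 2 stood apart from 3 and 4, and B87+DMKG libraries varied more than those of other groups (lowest correlation within a group 0.964), and values without either pair are given where they end or make a call. In bulk RNA, fewer cells with a transcript and less transcript per cell cannot be told apart, and values are relative to the other genes of a library because no spike-in was used here.

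Nutlin-3 raised 9 of the 10 genes after 6 h, by 0.58 (TRIAP1) to 1.97 (SPATA18) on the log2 scale. AEN was the exception. Against this, 39.1% of all rows tested were called, 18.5% higher and 20.7% lower, at a Benjamini-Hochberg adjusted p under 0.05 in limma, and the median log2 fold change was 1.44 over the members and -0.01 over all rows. Rita raised 5 members (XPC, DDB2, POLH, TP53I3 and FDXR) and lowered 0, with 52.1% of all rows called (25.8% higher and 26.3% lower) and medians of 0.32 and 0.03. The log2 fold changes of the other 5 members with Rita ranged from 0.07 ± 0.29 (SE; SPATA18) to 0.34 ± 0.23 (ZMAT3). Set against each other, Nutlin-3 gave higher levels than Rita for 8 members and lower levels for 0, with AEN and FDXR not called, while 51.2% of all rows were called (24.8% higher and 26.4% lower). MDM2 itself, the negative regulator and a p53 target, rose 11.1-fold with Nutlin-3 and 1.70-fold with Rita, and the cell cycle inhibitor CDKN1A rose 19.1-fold and 6.61-fold. These comparisons share the Control libraries.

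**Figure D1:**
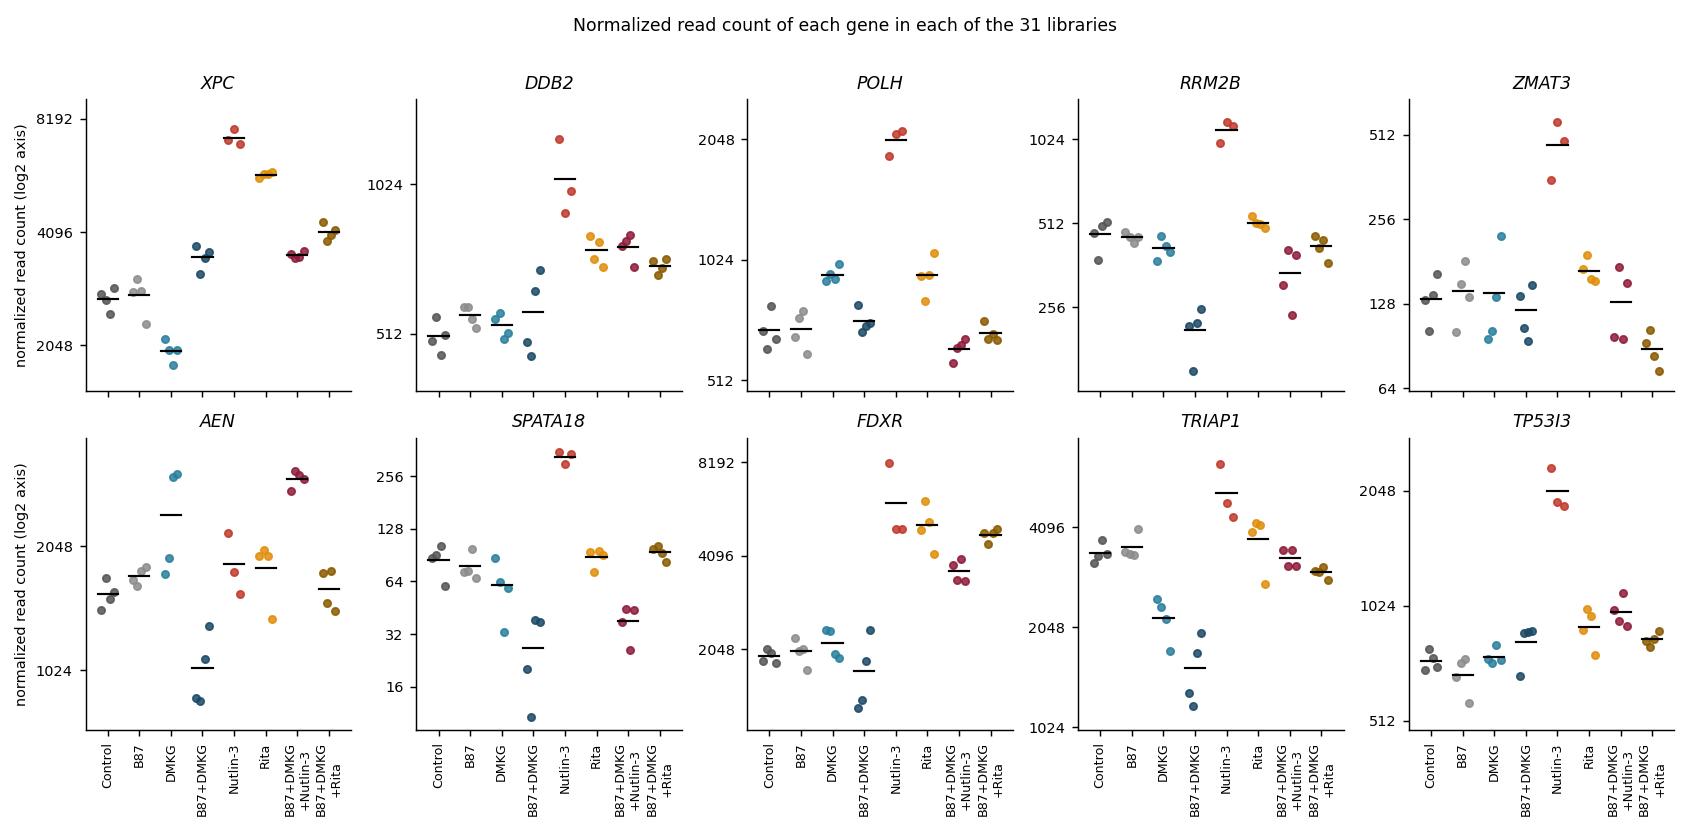
Normalized read count (log2 axis) of each gene in each library, by treatment group; each point is 1 library and the black line is the group mean (n = 4, Nutlin-3 n = 3). The Nutlin-3 libraries lie above every other group for XPC, DDB2, POLH, RRM2B, ZMAT3, SPATA18, TP53I3 and TRIAP1, but not for AEN or FDXR.

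B87 alone changed 0 of the 10 members. In that comparison limma called 7 rows of all those tested (0.0431%, with 0.0308% higher and 0.0123% lower), although 904 rows had an unadjusted p under 0.05, and none of the members was called by edgeR or DESeq2 on whole reads either. DMKG raised POLH and AEN and lowered XPC and TRIAP1, so 4 members were called where 41.4% of all rows were (19.6% higher and 21.8% lower), a share close to that of all rows. B87+DMKG raised XPC and lowered RRM2B, AEN, SPATA18 and TRIAP1. These 5 calls compare with 61% of all rows (30.2% higher and 30.8% lower), and the median was -0.17 over the members and 0.00 over all rows.

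**Figure D2:**
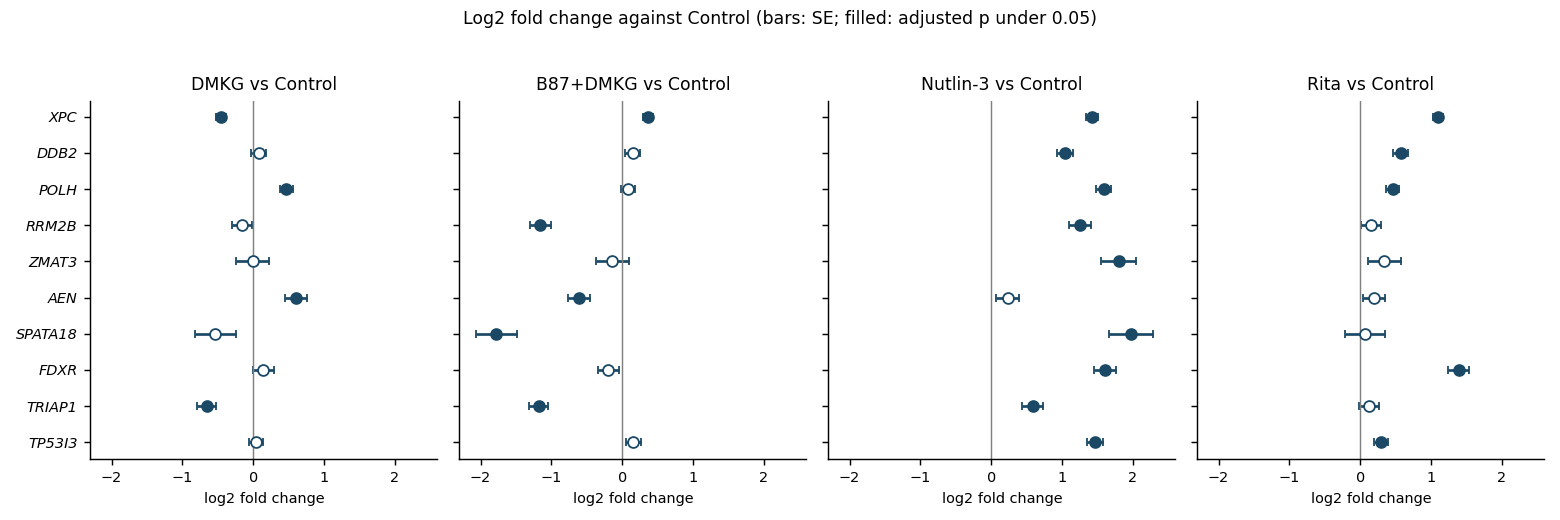
Log2 fold change against Control for DMKG, B87+DMKG, Nutlin-3 and Rita, with bars for 1 SE and filled points for an adjusted p under 0.05 in limma. Nutlin-3 moved 9 genes to the right, Rita moved 5 of them, and B87+DMKG lowered RRM2B, AEN, SPATA18 and TRIAP1.

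XPC detects distortions of the DNA helix and starts global-genome nucleotide excision repair. The gene (file ID GSHG0021539; hg19 chromosome 3, 14186649 to 14220173) had 2803, 2705, 2486 and 2906 normalized read counts in the Control libraries, 7181, 7692 and 7022 in Nutlin-3, and 5709, 5834, 5856 and 5908 in Rita. Every Nutlin-3 library lay above every Rita library, and both groups lay above all Control libraries. The log2 fold change was 1.42 ± 0.08 with Nutlin-3 (adjusted p = 5.9e-15) and 1.10 ± 0.07 with Rita (adjusted p = 1.4e-13), and the difference between the inhibitors was 0.32 ± 0.08 (adjusted p = 9.0e-04). DMKG gave 2124, 1995, 1821 and 1995, below every Control library (-0.46 ± 0.07, adjusted p = 6.6e-06). B87+DMKG gave 3756, 3173, 3505 and 3638, above every Control library (0.37 ± 0.07, adjusted p = 6.3e-05). XPC thus fell with DMKG and rose with B87+DMKG, and the combination exceeded the sum of the separate B87 and DMKG effects by 0.80 ± 0.10 on the log2 scale (adjusted p = 1.8e-07). From the highest mean to the lowest, the groups ran Nutlin-3, Rita, B87+DMKG+Rita, B87+DMKG+Nutlin-3, B87+DMKG, B87, Control and DMKG, with overlap between B87+DMKG+Nutlin-3 and B87+DMKG and between B87 and Control. The table's row of SLC6A6, a taurine transporter gene on the opposite strand, spans the whole XPC row, and whether strand was used in counting is not given in the sources used here. SLC6A6 averaged 31.3% of XPC, rose with DMKG (from 1075 ± 116 to 1997 ± 388; SD, n = 4 each), where XPC fell, and was not called with Nutlin-3 or Rita.

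DDB2, the subunit of the damaged-DNA binding complex that recognises ultraviolet lesions in chromatin (GSHG0004801; chromosome 11, 47236493 to 47260769), had 497, 554, 464 and 510 normalized read counts in Control and 1262, 894 and 994 in Nutlin-3. The groups did not overlap, and the first Nutlin-3 library was the highest. Rita gave 804, 725, 785 and 699, all above Control and below Nutlin-3. The rises were 1.04 ± 0.11 with Nutlin-3 (adjusted p = 2.7e-08) and 0.57 ± 0.11 with Rita (adjusted p = 4.0e-05) on the log2 scale, and Nutlin-3 exceeded Rita by 0.47 ± 0.11 (adjusted p = 0.00114). B87+DMKG did not change DDB2 by the test (0.15 ± 0.11, adjusted p = 0.227), but its libraries split into 494 and 463 against 625 and 690. Without libraries 3 and 4 the value was -0.08, and without 1 and 2 it was called (0.38, adjusted p = 0.00414). Only the Nutlin-3 group stood clear of its neighbour in the order of mean levels: B87+DMKG+Nutlin-3, Rita and B87+DMKG+Rita followed with overlapping values of 671 to 809, and below them B87+DMKG, B87, DMKG and Control overlapped in turn.

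POLH encodes DNA polymerase eta, which copies across ultraviolet-induced thymine dimers. Its row (GSHG0025756; chromosome 6, 43543878 to 43588260) held 681, 612, 787 and 649 normalized read counts in Control, 1864, 2119 and 2149 in Nutlin-3, and 934, 807, 936 and 1067 in Rita. The lowest Nutlin-3 library exceeded the highest Rita library, and all Rita libraries exceeded all Control libraries. Nutlin-3 raised POLH by 1.59 ± 0.10 on the log2 scale (adjusted p = 1.6e-13) and Rita by 0.46 ± 0.09 (adjusted p = 1.3e-04), which differed by 1.13 ± 0.10 (adjusted p = 9.8e-11). DMKG gave 906, 942, 916 and 999, a rise of 0.47 ± 0.09 (adjusted p = 1.4e-04), whereas the B87+DMKG libraries (676 to 789) overlapped Control. The combination fell short of the sum of its parts by -0.40 ± 0.13 (adjusted p = 0.0128), a call lost when libraries were scaled to equal totals (adjusted p = 0.0995). Below Nutlin-3, the DMKG and Rita groups overlapped, and so did B87+DMKG, B87, Control, B87+DMKG+Rita and B87+DMKG+Nutlin-3 in turn.

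RRM2B is the p53-inducible small subunit of ribonucleotide reductase, which makes deoxynucleotides for repair and for mitochondrial DNA. The row (GSHG0029761; chromosome 8, 103216729 to 103251346) had 474, 378, 499 and 517 normalized read counts in Control, 991, 1187 and 1141 in Nutlin-3, and 544, 513, 510 and 493 in Rita. Nutlin-3 stood clear of all other groups (1.25 ± 0.15 on the log2 scale, adjusted p = 1.8e-07), while Rita overlapped Control (0.15 ± 0.14, adjusted p = 0.395). B87+DMKG gave 219, 151, 225 and 251, less than every Control library, and the fall of 2.23-fold (log2 fold change -1.15 ± 0.14, adjusted p = 4.3e-08) was larger than the sum of the B87 and DMKG effects by -0.97 ± 0.20 (adjusted p = 2.1e-04). Neither B87 (436 to 478) nor DMKG (376 to 460) was called alone. RRM2, the S-phase counterpart of RRM2B, went the other way with Nutlin-3, falling by 0.29 ± 0.08 on the log2 scale (adjusted p = 0.00613), a call lost without Nutlin-3 library 1 (adjusted p = 0.0924).

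ZMAT3 is a zinc finger protein that binds RNA and alters splicing and stability of transcripts. With few reads (GSHG0022252; chromosome 3, 178735011 to 178789656), it had 132, 102, 137 and 163 normalized read counts in Control and 353, 571 and 486 in Nutlin-3. The Nutlin-3 libraries lay above the other 28 libraries, and the log2 fold change was 1.80 ± 0.25 (adjusted p = 1.3e-06). Rita gave 170, 191, 157 and 154, of which 2 libraries lay within the Control range, and was not called (0.34 ± 0.23, adjusted p = 0.225). DMKG gave 96.0, 103, 135 and 224 and was not called. All groups other than Nutlin-3 overlapped their neighbours in the order of means, with B87+DMKG+Rita lowest at 92.9, 103, 83.7 and 73.6. The last group was called lower than Control (-0.59 ± 0.23, adjusted p = 0.0307), a call lost when any of Control 1, 3 or 4 or B87+DMKG+Rita 3 or 4 was left out (adjusted p from 0.0528 to 0.102), and in 2 of 11 other settings.

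AEN is an exonuclease that takes part in p53-driven apoptosis. AEN (GSHG0010124; chromosome 15, 89164527 to 89175518) was the member that Nutlin-3 did not change by the test. Control gave 1430, 1718, 1525 and 1585 normalized read counts, Nutlin-3 gave 2208, 1778 and 1568, and Rita gave 1945, 2003, 1939 and 1360. Both groups overlapped Control (0.23 ± 0.17, adjusted p = 0.280 and 0.20 ± 0.15, adjusted p = 0.288). The highest mean was in B87+DMKG+Nutlin-3, at 2790, 3131, 3062 and 2996, above every Control, Nutlin-3, Rita and B87+DMKG library but overlapping DMKG. B87+DMKG alone had the lowest, at 876, 863, 1090 and 1310, all below Control (-0.61 ± 0.15, adjusted p = 9.4e-04), and the call was lost without its libraries 1 and 2 (-0.39, adjusted p = 0.0655). DMKG gave 1751, 1923, 3026 and 3074, so its rise (0.60 ± 0.15, adjusted p = 0.00210) rested on libraries 3 and 4: it was 0.23 without them (adjusted p = 0.255) and 0.97 without libraries 1 and 2 (adjusted p = 6.2e-06). The combination was below the sum of its parts by -1.37 ± 0.22 (adjusted p = 5.8e-06).

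SPATA18, also known as Mieap, acts in the clearing of damaged mitochondrial protein. It was among the least abundant members (GSHG0022584; chromosome 4, 52917497 to 52963469), with 87.6, 90.6, 103 and 60.1 normalized read counts in Control, and had the largest rise of the 10 with Nutlin-3, to 353, 302 and 342 (1.97 ± 0.31, adjusted p = 7.2e-06). Rita gave 94.2, 72.6, 95.1 and 91.0, within the Control range (0.07 ± 0.29, adjusted p = 0.862), a value that was -0.09 without Control 4. B87+DMKG gave 20.1, 10.7, 38.3 and 37.4, the largest fall among the members in that comparison (-1.78 ± 0.29, adjusted p = 3.6e-06), of which -1.12 was left without libraries 1 and 2 (adjusted p = 7.6e-04). In the group with the least, a library held as few as 8 recovered reads of the gene, so the size of that fall is loosely known. DMKG (33.0 to 87.7) and B87 (67.1 to 98.5) were not called. In the order of mean levels, Nutlin-3 was clear of the next group, and B87+DMKG+Rita, Rita, Control, B87, DMKG, B87+DMKG+Nutlin-3 and B87+DMKG followed with overlap between each pair of neighbours.

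FDXR, ferredoxin reductase, passes electrons from NADPH to ferredoxins for steroid hydroxylation and iron-sulfur cluster assembly in mitochondria. The row (GSHG0013716; chromosome 17, 72858620 to 72869156) had 1873, 2045, 1994 and 1845 normalized read counts in Control, 8176, 5001 and 4987 in Nutlin-3, and 4977, 6146, 5260 and 4155 in Rita. Both inhibitors lay above every Control library and overlapped each other. The rises were 1.39 ± 0.15 with Rita (adjusted p = 2.7e-09) and 1.60 ± 0.16 with Nutlin-3 (adjusted p = 2.7e-09), and the difference was 0.21 ± 0.16 (adjusted p = 0.269) and fell to -0.03 without Nutlin-3 library 1. B87 (1759 to 2222) and DMKG (1919 to 2365) overlapped Control. In B87+DMKG the libraries were 1325, 1400, 1869 and 2364, on both sides of Control (-0.20 ± 0.15, adjusted p = 0.249): without libraries 3 and 4 a fall was called (-0.51, adjusted p = 0.00408), as it was without library 4 alone (-0.36, adjusted p = 0.0275), and without libraries 1 and 2 the value was 0.12 (adjusted p = 0.528).

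TRIAP1 is a small protein that, with PRELI-family partners, carries phosphatidic acid between the mitochondrial membranes. Its row (GSHG0007852; chromosome 12, 120881765 to 120884215) had 3200, 3357, 3763 and 3395 normalized read counts in Control and 6333, 4864 and 4389 in Nutlin-3, the smallest of the called Nutlin-3 rises (0.58 ± 0.15, adjusted p = 0.00213). Rita gave 3962, 4231, 4156 and 2758, both above and below Control (0.12 ± 0.14, adjusted p = 0.479). DMKG gave 2487, 2365, 2167 and 1734, below every Control library (-0.66 ± 0.14, adjusted p = 2.6e-04), and B87+DMKG gave 1298, 1187, 1721 and 1964 (-1.18 ± 0.14, adjusted p = 1.4e-08). It was the single member lowered by both. Nutlin-3 exceeded Rita by 0.46 ± 0.15 (adjusted p = 0.00971), a call lost without Nutlin-3 library 1 (adjusted p = 0.0995) or Rita library 4 (adjusted p = 0.0612).

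TP53I3 (PIG3), a quinone oxidoreductase linked to reactive oxygen, had 696, 789, 746 and 709 normalized read counts in Control and 2343, 1916 and 1869 in Nutlin-3 (GSHG0017476; chromosome 2, 24300052 to 24308085). Nutlin-3 raised it 2.77-fold (1.47 ± 0.11, adjusted p = 7.9e-12). Rita gave 885, 1004, 960 and 760, of which 1 library lay within the Control range (0.29 ± 0.10, adjusted p = 0.0178), and that call was lost without Control 1, Rita 2 or Rita 3 (adjusted p from 0.0511 to 0.0757) and when libraries were scaled to equal totals (0.11, adjusted p = 0.368). B87, DMKG and B87+DMKG were not called, and 3 of the 4 B87+DMKG libraries lay at 871 to 880 with the other at 672. Nutlin-3 exceeded Rita by 1.18 ± 0.11 (adjusted p = 2.7e-10).

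With B87+DMKG present, levels under Nutlin-3 were lower for most of these genes. Each of the 10 members differed between B87+DMKG+Nutlin-3 and Nutlin-3 alone: 9 were lower and AEN was higher, where 59.7% of all rows were called (29% higher and 30.6% lower), and the medians were -1.04 over the members and -0.01 over all rows. SPATA18 fell most, from 353, 302 and 342 to 37.3, 44.4, 25.9 and 43.7 (-3.13 ± 0.31, adjusted p = 4.7e-10). ZMAT3 fell to 97.9, 173, 96.1 and 152 (-1.87 ± 0.25, adjusted p = 1.9e-07), POLH to 566, 616, 627 and 649 (-1.73 ± 0.10, adjusted p = 2.3e-15) and RRM2B to 308, 412, 240 and 395 (-1.73 ± 0.15, adjusted p = 5.1e-11). In each of the 9 members that were lower, every library of the triple treatment lay below every Nutlin-3 library. Smaller falls were measured for TP53I3 (998, 932, 1105 and 909; -1.05 ± 0.11), XPC (3573, 3489, 3526 and 3655; -1.03 ± 0.08), FDXR (3825, 3409, 3998 and 3402; -0.69 ± 0.16), TRIAP1 (3502, 3131, 3502 and 3140; -0.63 ± 0.15) and DDB2 (768, 785, 809 and 698; -0.44 ± 0.11), with adjusted p from 1.3e-12 to 0.00144. The FDXR difference was -0.45 without Nutlin-3 library 1 (adjusted p = 0.0126).

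Fewer members were called between the Rita groups, and so were fewer of all rows (23.4%, against 59.7% between the Nutlin-3 groups). The median log2 fold change was -0.22 over the members and 0.00 over all rows. Between B87+DMKG+Rita and Rita alone 3 members were called lower and 0 higher (23.4% of all rows called, 9.35% higher and 14.1% lower): XPC at 4370, 3875, 4018 and 4146 (-0.51 ± 0.07, adjusted p = 5.2e-06), POLH at 721, 650, 668 and 644 (-0.47 ± 0.09, adjusted p = 3.3e-04) and ZMAT3 (-0.93 ± 0.23, adjusted p = 0.00391). FDXR was at 4835, 4476, 4841 and 5008, against 4155 to 6146 in Rita (-0.09 ± 0.15, adjusted p = 0.711; 95% confidence interval -0.38 to 0.21). SPATA18 was at 98.2, 102, 92.7 and 82.9 against 72.6 to 95.1.

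Against Control, B87+DMKG+Nutlin-3 raised XPC, DDB2, AEN, TP53I3 and FDXR and lowered RRM2B and SPATA18, so 7 members were called where 58% of all rows were (28.3% higher and 29.7% lower). B87+DMKG+Rita raised XPC, DDB2 and FDXR and lowered ZMAT3, which makes 4 calls against 60.1% of all rows (29.4% higher and 30.7% lower). Both triple treatments thus shared rises of XPC, DDB2 and FDXR over the same Control libraries. FDXR rose by 0.91 ± 0.15 with B87+DMKG+Nutlin-3 (adjusted p = 3.3e-06) and by 1.30 ± 0.15 with B87+DMKG+Rita (adjusted p = 5.7e-09). AEN rose 1.92-fold with B87+DMKG+Nutlin-3 (0.94 ± 0.15, adjusted p = 4.8e-06) and was at 1763, 1488, 1785 and 1428 with B87+DMKG+Rita, overlapping Control. SPATA18 was lower with B87+DMKG+Nutlin-3 (-1.16 ± 0.29, adjusted p = 9.4e-04). RRM2B was also lower (-0.49 ± 0.14, adjusted p = 0.00442), which was lost under quantile normalization (-0.22, adjusted p = 0.183). DDB2 with B87+DMKG+Rita (0.47 ± 0.11) was lost with equal library totals (0.22, adjusted p = 0.106).

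Added to B87+DMKG, each inhibitor still raised several members. Nutlin-3 raised DDB2, RRM2B, AEN, TP53I3, FDXR and TRIAP1 and lowered POLH over B87+DMKG alone, 7 calls where 58.9% of all rows were called (26.5% higher and 32.3% lower). Rita raised XPC, DDB2, RRM2B, AEN, SPATA18, FDXR and TRIAP1, 7 calls where 67.3% of all rows were called (33.1% higher and 34.2% lower). RRM2B, TRIAP1 and AEN, which B87+DMKG had lowered, were raised by both inhibitors from there: AEN 2.93-fold with Nutlin-3 (1.55 ± 0.15, adjusted p = 8.2e-10) and 1.58-fold with Rita (0.66 ± 0.15, adjusted p = 3.9e-04), TRIAP1 by 1.13 ± 0.14 (adjusted p = 4.0e-08) and 0.99 ± 0.14 (adjusted p = 2.4e-07), and RRM2B by 0.67 ± 0.14 (adjusted p = 1.9e-04) and 1.02 ± 0.14 (adjusted p = 2.9e-07). SPATA18 rose with Rita from 20.1, 10.7, 38.3 and 37.4 to 98.2, 102, 92.7 and 82.9 (1.94 ± 0.29, adjusted p = 6.8e-07). With Nutlin-3 it was not called (0.62 ± 0.29, adjusted p = 0.0615) and was -0.03 without B87+DMKG libraries 1 and 2, but it was called higher under quantile normalization (1.04, adjusted p = 0.00102), without B87+DMKG libraries 3 and 4 (1.28, adjusted p = 4.5e-04), and without B87+DMKG library 3 or 4 or B87+DMKG+Nutlin-3 library 3 alone (0.79 to 0.85, adjusted p from 0.0151 to 0.0283). Several of these calls rest on the split of the B87+DMKG libraries or on scaling. For DDB2, the rise with Nutlin-3 (0.45 ± 0.11) was 0.22 without libraries 1 and 2 (adjusted p = 0.0977), and the rise with Rita (0.32 ± 0.11) was lost without library 2 (adjusted p = 0.0598) and without libraries 1 and 2 (0.0940, adjusted p = 0.470), and fell to 0.08 with equal library totals (adjusted p = 0.547). The rise of XPC with Rita (0.22 ± 0.07) became -0.02 with equal totals (adjusted p = 0.843) and was lost under quantile normalization (adjusted p = 0.276). Without B87+DMKG libraries 1 and 2, the rises with Rita were 1.29 for SPATA18 (adjusted p = 1.6e-04) and 0.43 for AEN (adjusted p = 0.0384). TP53I3 (0.26 ± 0.10) and POLH (-0.23 ± 0.09) with Nutlin-3 were lost without B87+DMKG library 1 (adjusted p = 0.158 and 0.116), without B87+DMKG+Nutlin-3 library 1 (adjusted p = 0.0536 and 0.112), without its library 3 for TP53I3 (adjusted p = 0.106) and without its library 2 for POLH (adjusted p = 0.0557). Among 13 other settings, TP53I3 lost this call in 3 (0.16 without B87+DMKG libraries 1 and 2, adjusted p = 0.244) and POLH in 5. Those of POLH include quantile normalization (-0.0957, adjusted p = 0.369) and the fits without B87+DMKG libraries 1 and 2 (-0.20, adjusted p = 0.133) or 3 and 4 (-0.25, adjusted p = 0.0623).

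The effect of Nutlin-3 with B87+DMKG minus its effect without B87+DMKG was called for 10 of 10 members, 2 higher (AEN and TRIAP1) and 8 lower, where 56.9% of all rows were called (26.4% higher and 30.6% lower), and the medians were -0.90 and -0.06. The differences were largest for POLH (-1.81 ± 0.14, adjusted p = 7.8e-12), ZMAT3 (-1.73 ± 0.34, adjusted p = 8.9e-05), XPC (-1.40 ± 0.11, adjusted p = 9.3e-12) and SPATA18 (-1.35 ± 0.42, adjusted p = 0.00720) among the falls, and for AEN in the other direction (1.32 ± 0.23, adjusted p = 1.2e-05). SPATA18 lost its call without B87+DMKG libraries 3 and 4 (-0.70, adjusted p = 0.121) and under quantile normalization (-0.84, adjusted p = 0.0594), and kept it without libraries 1 and 2 (adjusted p = 3.4e-05). DDB2 (-0.59) was -0.36 without libraries 3 and 4 (adjusted p = 0.0331). The FDXR difference (-0.49 ± 0.21, adjusted p = 0.0493) was lost in 10 of the 15 fits that left out 1 library and in 6 of 13 other settings. It was -0.26 without Nutlin-3 library 1, -0.33 without B87+DMKG library 4, -0.18 without B87+DMKG libraries 3 and 4 (adjusted p = 0.436) and -0.81 without libraries 1 and 2 (adjusted p = 0.00145). The TRIAP1 difference (0.55 ± 0.20, adjusted p = 0.0215) was lost without B87+DMKG library 1 or 2 or Nutlin-3 library 2 or 3 (adjusted p from 0.0515 to 0.0867), and was 0.27 without both B87+DMKG libraries 1 and 2 (adjusted p = 0.255) and 0.83 without libraries 3 and 4 (adjusted p = 5.1e-04). The RRM2B difference (-0.58 ± 0.21, adjusted p = 0.0199) was lost without Control 2, Nutlin-3 library 2 or B87+DMKG+Nutlin-3 library 3 (adjusted p from 0.0533 to 0.0633), without B87+DMKG libraries 3 and 4 (-0.39, adjusted p = 0.135), under quantile normalization (-0.30, adjusted p = 0.219) and with only the groups compared in the model (adjusted p = 0.0745). For Rita the same difference was called for 6 members, 3 in each direction, with 48.6% of all rows called (24.2% higher and 24.4% lower). XPC (-0.88 ± 0.10, adjusted p = 4.9e-08), POLH (-0.56 ± 0.13, adjusted p = 8.2e-04) and ZMAT3 (-0.78 ± 0.33, adjusted p = 0.0490) had a smaller Rita effect in the presence of B87+DMKG, and ZMAT3 lost its call in 12 of 16 fits that left out 1 library and in 5 of 13 other settings. RRM2B (0.87 ± 0.20, adjusted p = 7.2e-04), SPATA18 (1.87 ± 0.40, adjusted p = 3.3e-04) and TRIAP1 (0.87 ± 0.19, adjusted p = 4.7e-04) had a larger one, which for SPATA18 was 1.22 without B87+DMKG libraries 1 and 2 (adjusted p = 0.00513). B87+DMKG against the sum of B87 and DMKG gave 6 calls (48.8% of all rows called, 24.6% higher and 24.1% lower): XPC higher, and RRM2B, POLH, AEN, SPATA18 and TRIAP1 lower. SPATA18 there (-1.13 ± 0.40, adjusted p = 0.0215) was lost without Control 4, DMKG library 1 or B87+DMKG library 2 (adjusted p from 0.0553 to 0.0699), and was -0.48 without B87+DMKG libraries 1 and 2 (adjusted p = 0.270), -1.78 without libraries 3 and 4 and -0.76 without DMKG libraries 1 and 2 (adjusted p = 0.160). TRIAP1 (-0.58 ± 0.19, adjusted p = 0.0144) was lost without B87+DMKG libraries 1 and 2 (adjusted p = 0.200) and without DMKG libraries 1 and 2 (adjusted p = 0.114), and with equal library totals (adjusted p = 0.0672).

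**Figure D3:**
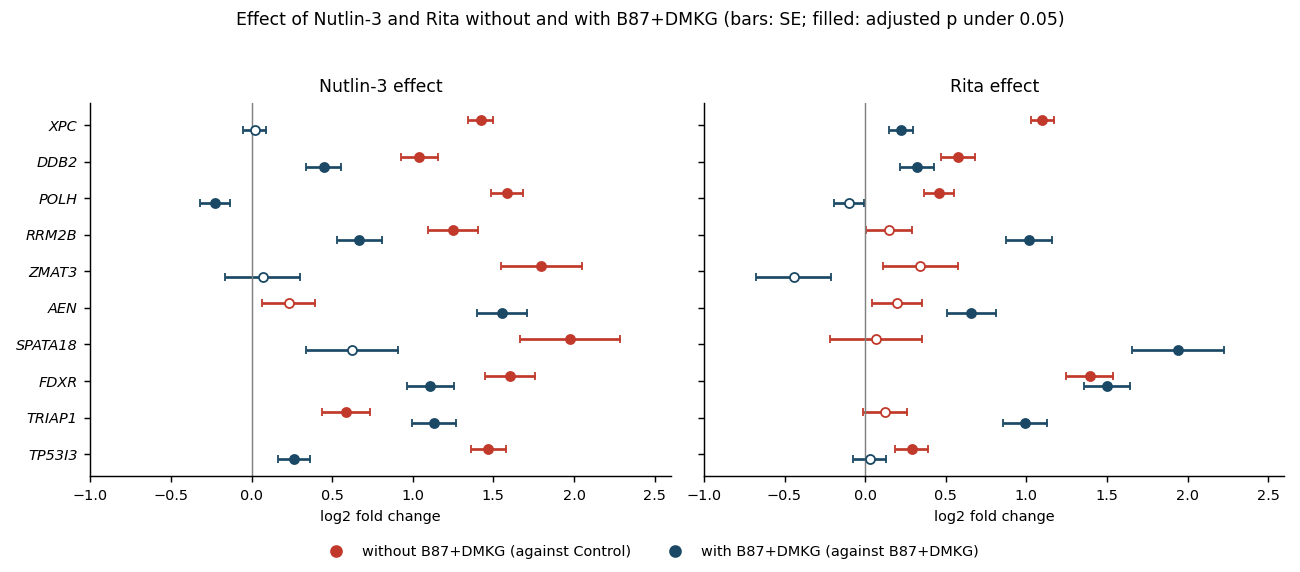
Log2 fold change given by Nutlin-3 (left) and Rita (right), without B87+DMKG (against Control, red) and with it (against B87+DMKG, blue), with bars for 1 SE and filled points for an adjusted p under 0.05 in limma. For Nutlin-3 the blue point lies left of the red for 8 genes and right of it for AEN and TRIAP1, and for Rita the FDXR points lie close together.

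Of the genes that start near a member on the opposite strand, 3 protein-coding ones were compared with it to see whether both sides of a shared promoter region moved. XPO5, which exports microRNA precursors and starts 75 bp from POLH, was at 4314 ± 108 normalized read counts in Control and 3463 ± 120 in Nutlin-3 (SD, n = 4 and 3), a fall of 0.32 on the log2 scale (SE 0.06) beside the 3.00-fold rise of POLH. XPO5 was also lower than Control in DMKG (3303 ± 140), Rita (3322 ± 97.7), B87+DMKG (3823 ± 119) and B87+DMKG+Rita (3484 ± 96.1). It was not lower in B87 (4416.5 ± 369) or B87+DMKG+Nutlin-3 (4508 ± 246). GATC, a subunit of the mitochondrial glutamyl-tRNA amidotransferase, starts 26 bp from TRIAP1 and was not called with Nutlin-3 (3031 ± 36.0 and 3103 ± 130). In DMKG, where TRIAP1 fell, GATC was lower than in Control too (2248 ± 98.3). GATC was also lower in Rita (2651 ± 137) and B87+DMKG+Rita (2192 ± 47.6), where TRIAP1 was not called against Control. In B87 and B87+DMKG+Nutlin-3, GATC was at 3133 ± 333 and 3030 ± 27.0 (SD, n = 4 each). With B87+DMKG, GATC fell by 0.18 ± 0.07 on the log2 scale and TRIAP1 by 1.18 ± 0.14. The GATC fall was not called without B87+DMKG library 4 (adjusted p = 0.143), without libraries 3 and 4 (adjusted p = 0.155) or under quantile normalization (adjusted p = 0.503). LSM3, part of the splicing and decapping ring and 425 bp from XPC, rose with Nutlin-3 (4945 ± 299 to 8745 ± 2635; 0.78 ± 0.19) and with B87+DMKG (0.49 ± 0.18), but not without B87+DMKG library 1 or 2 (adjusted p = 0.0830 and 0.104) or both (0.0750, adjusted p = 0.733). LSM3 was 0.91 without libraries 3 and 4 (adjusted p = 4.5e-05) and was not called with Rita or DMKG, where XPC rose and fell. The GTPBP2 row overlaps the POLH row by 42 bp and it too rose with Nutlin-3 (1.02 ± 0.15).

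**Figure D4:**
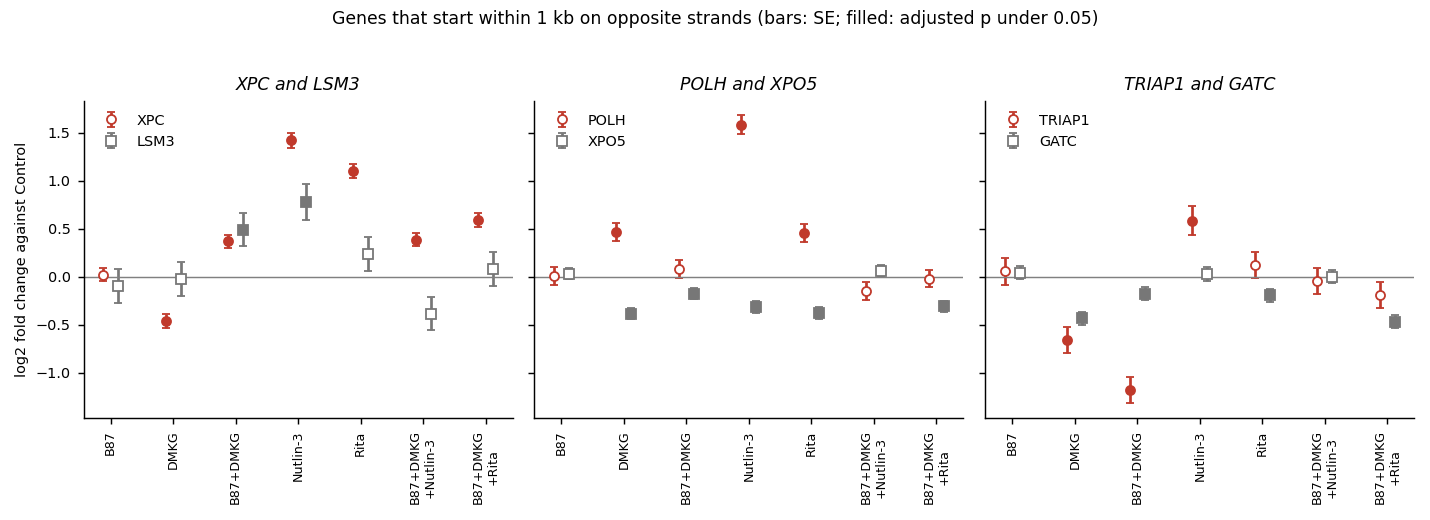
Log2 fold change against Control in 7 treatments for XPC, POLH and TRIAP1 (red circles) and the gene that starts nearby on the opposite strand (grey squares: LSM3, XPO5 and GATC), with bars for 1 SE and filled symbols for an adjusted p under 0.05 in limma. In Nutlin-3, POLH lies at 1.59 and XPO5 at -0.32.

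Levels per kilobase of exon (normalized read count divided by the exonic length in GENCODE v29) differed widely among the members in Control. TRIAP1 was highest at 2378 ± 165, followed by XPC at 568 ± 37.3 and FDXR at 539 ± 26.6, whose ranges overlap. TP53I3 (318 ± 18.0), AEN (260 ± 20), POLH (193 ± 21.3), DDB2 (103 ± 7.60) and RRM2B (84.2 ± 11.1) came next, and SPATA18 (17.3 ± 3.63) and ZMAT3 (13.9 ± 2.58) were lowest (SD, n = 4). With Nutlin-3, FDXR (1682 ± 511) and XPC (1521 ± 72.9) were again the nearest to TRIAP1 (3603 ± 703; SD, n = 3), and the FDXR mean rested on library 1 (8176 normalized read counts, against 5001 and 4987 in the others).

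Across the 31 libraries, the members did not form 1 pattern. The log2 values of RRM2B and SPATA18 had a Pearson correlation of 0.92, those of DDB2 and FDXR 0.89, DDB2 and TP53I3 0.84, and POLH and ZMAT3 0.83, whereas XPC and AEN had -0.12 and POLH and AEN 0.02. The libraries of a group share a treatment, so these values describe the 8 groups more than 31 independent points. Over 11141 genes with a mean of at least 50, the pattern closest to XPC was that of PRKAB1 (correlation 0.94), to DDB2 that of PHLDA3 (0.92), to RRM2B that of SESN1 (0.91), to ZMAT3 that of FAS (0.89) and to TRIAP1 those of SRPRB (0.90) and TNFRSF10A (0.89). PHLDA3, SESN1, FAS and TNFRSF10A are on the list of other p53 targets read below. The next gene after the closest is given only for TRIAP1 (TNFRSF10A) and FDXR (GOT1). The closest to FDXR were EIF4EBP1 (0.96) and GOT1 (0.95), to SPATA18 FICD (0.89), to TP53I3 SEC61A1 (0.90), to POLH ZBTB7B (0.88) and to AEN ZNF496 (0.84).

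Other p53 targets were read in the same comparisons. Of 37 tested from a list of 40, Nutlin-3 raised 31 and lowered 1 (PERP), with a median log2 fold change of 1.26. The largest rises were those of BTG2, an antiproliferative gene (4.37 ± 0.11), CDKN1A (4.25 ± 0.11), the secreted stress factor GDF15 (3.84 ± 0.20) and TP53INP1 (3.75 ± 0.19). Rita raised 24 and lowered 5 (median 0.51), with BTG2 (3.41 ± 0.10) and the decoy receptor TNFRSF10D (3.20 ± 0.24) in front. B87+DMKG raised 4 and lowered 23 (median -0.61; all rows 30.2% higher and 30.8% lower), led by SESN2 (-2.18 ± 0.20), PIDD1 in the other direction (1.68 ± 0.16), PMAIP1 (-1.58 ± 0.15) and CCNG1 (-1.53 ± 0.15). Against Nutlin-3 alone, B87+DMKG+Nutlin-3 was lower for 27 and higher for 3 (all rows 30.6% lower and 29% higher), with TP53INP1 at -3.69 ± 0.19, FAS at -2.59 ± 0.15 and MDM2 at -2.32 ± 0.09. The all-row medians were -0.01, 0.03, 0.00 and -0.01 in these 4 comparisons. The list was drawn up with results of these data known.

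The other genes of the members' pathways were counted from lists. Of 24 other nucleotide excision repair genes, Nutlin-3 raised 3 and lowered 5 (median -0.05), with the transcription factor IIH subunit GTF2H2 lowest (-0.78 ± 0.10). Of 14 other translesion synthesis genes it raised 3 and lowered 3. The ubiquitin ligase RAD18, which recruits polymerase eta to stalled forks, fell by 1.21 ± 0.16 on the log2 scale with Nutlin-3 and by 1.36 ± 0.15 with Rita. Of 11 other genes of deoxynucleotide supply, Nutlin-3 raised 2 and lowered 8 (median -0.32), with DUT at -0.59 ± 0.08, TYMS at 0.55 ± 0.07 and TK1 at -0.51 ± 0.10. Rita raised 5 of these 11 and lowered 0.

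Among 10 genes of iron-sulfur cluster assembly, the pathway that FDXR feeds, Nutlin-3 raised 3 and lowered 2 and Rita raised 5 and lowered 1. ISCU, the assembly scaffold, rose with both (0.81 ± 0.06 and 0.72 ± 0.06). Of 14 genes of mitochondrial quality control, Nutlin-3 raised 3 and lowered 2 and Rita raised 6 and lowered 4. B87+DMKG raised 2 of these 14 and lowered 6. Among the latter, OPA1, which fuses inner membranes, fell by 1.21 ± 0.12 on the log2 scale. Of 8 quinone reductases and their relatives of TP53I3, Nutlin-3 raised 0 and lowered 3 while Rita raised 4 and lowered 0, and CBR1 was at -0.57 ± 0.11 with Nutlin-3. Each of these lists is to be read against the 39.1% of all rows called with Nutlin-3, 52.1% with Rita and 61% with B87+DMKG.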

How the data were processed

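Poly(A) RNA of 31 samples in 8 groups was sequenced. Per the labels' protocols, each sample came from 2 wells, RNA was extracted with a Qiagen kit for small inputs and libraries were made with a stranded Illumina mRNA kit. The submitters' processing notes list FastQC, Picard, SAMtools, STAR 2.4.0 and DESeq2 and the mouse build mm10. The table's header names hg19 and its symbols are human, so gene positions are given on hg19, while promoter windows are on GRCh38.p14. Whether counting used the strand is not given in the sources used here. As 1 signal value per row and library, the authors deposited a read count scaled by a DESeq2 factor, as the labels name it. In the table, 51656 rows had no symbol, and 1 column of values matched no sample and was not used. All 690132 values above 0 (100%) lay within 0.1 step of a whole multiple of their library's smallest step, so whole reads could be recovered.

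Comparisons were tested with limma 3.58.1 under R 4.3.3, with an intensity trend in the empirical Bayes step. The input was log2(normalized read count + 1) of the 16259 rows with a mean of 10 or more, in a single model of all 31 libraries by group, unblocked (degrees of freedom 23 residual and 7.14 prior). P-values were adjusted by Benjamini-Hochberg over those rows in each of 15 comparisons, with calls made under 0.05. Fold changes on this scale are understated for low genes. The fit was tested on simulated data. The settings varied were the pseudocount (0.5 or 5), the filter (none, or a mean of 50 or more), the scaling (quantile, or equal library totals), the samples in the model, the block, the tool (edgeR 4.0.16 or DESeq2 1.42.0, run on recovered reads), a fold threshold of 1 on the log2 scale, and each library in turn. Models without libraries 1 and 2 or 3 and 4 of DMKG or of B87+DMKG, or restricted to rows naming a single gene, were chosen after seeing the data.

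The members, gene lists and rules were chosen with earlier results of these data known. Named genes were all members, MDM2 and CDKN1A, up to 4 called genes per list and comparison with the largest change, the 2 genes with the most similar pattern per member, and a gene starting within 1 kb on the opposite strand. SLC6A6 and GTPBP2, whose rows overlap a member's, and RRM2 and PERP were named outside that rule or after their values were seen. Some genes that the rule names are not reported here.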

Additional observations from a re-analysis of the deposited data

Results flagged for a closer look

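In 3 of the 70 combinations of a member and a group of 4 libraries, 1 library stood apart from the other 3 by Dixon's test at the 95% level, and chance gives about 1 in 20. These were AEN in Rita library 4 (1360 normalized read counts), TP53I3 in B87+DMKG library 1 (672) and TRIAP1 in B87 library 4 (4037).

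The effect of an inhibitor differed between cells with and without B87+DMKG by an interaction term in limma. For Nutlin-3 the differences in log2 fold change were -1.40 for XPC, -0.59 for DDB2, -0.58 for RRM2B, -1.81 for POLH, -1.73 for ZMAT3, 1.32 for AEN, -1.35 for SPATA18, -1.21 for TP53I3, -0.49 for FDXR and 0.55 for TRIAP1, with adjusted p from 7.8e-12 (POLH) to 0.0493 (FDXR). For Rita they were -0.88 for XPC, 0.87 for RRM2B, -0.56 for POLH, -0.78 for ZMAT3, 1.87 for SPATA18 and 0.87 for TRIAP1, with adjusted p from 4.9e-08 (XPC) to 0.0490 (ZMAT3). The B87+DMKG libraries enter each of these values. Without libraries 3 and 4 of that group the Nutlin-3 differences of SPATA18 (-0.70, adjusted p = 0.121), FDXR (-0.18, adjusted p = 0.436) and RRM2B (-0.39, adjusted p = 0.135) were not called, and without libraries 1 and 2 that of TRIAP1 (0.27, adjusted p = 0.255). The Rita difference of ZMAT3 was not called without either pair (adjusted p = 0.0732 and 0.0898).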

How the results depend on the processing

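Over 102 member log2 fold changes in 2183 pairs of value and setting, 10 pairs (9 values) changed sign, 92 others (20 values) lost a call and 8 others (3 values) gained 1. A pair that changed sign is counted only there even if its call was lost. This was so for XPC in B87+DMKG+Rita against B87+DMKG with equal library totals (adjusted p = 0.843 in limma). The 102 values do not include every member in every comparison, and calls gained by values left out are not in these counts. Requiring also a change of 1 or more on the log2 scale left 0 members called for DMKG, 3 for B87+DMKG, 2 for Rita, 1 for B87+DMKG+Nutlin-3 and 1 for B87+DMKG+Rita against Control, 3 for each triple treatment against B87+DMKG, 6 for B87+DMKG+Nutlin-3 against Nutlin-3, 0 for B87+DMKG+Rita against Rita, 5 for Nutlin-3 against Rita, 2 beyond the sum, and 6 and 1 for the Nutlin-3 and Rita interactions. It left 1 row for B87 (7 without it, 14 with only the groups compared, 30 with DESeq2, 2 to 7 without 1 library), 1691 of 6725 for DMKG, 3391 of 9922 for B87+DMKG, 1223 of 6359 for Nutlin-3 and 2272 of 8468 for Rita. Without B87+DMKG libraries 1 and 2, 4 members were called for B87+DMKG+Nutlin-3 against B87+DMKG. Without 1 library, the members called ranged from 0 to 0 for B87, 4 to 5 for DMKG, 5 to 6 for B87+DMKG, 9 to 9 for Nutlin-3, 4 to 5 for Rita, 7 to 7 and 3 to 4 for B87+DMKG+Nutlin-3 and B87+DMKG+Rita against Control, 5 to 8 and 6 to 7 against B87+DMKG, 10 to 10 and 3 to 4 against the inhibitor alone, 7 to 8 for Nutlin-3 against Rita, 5 to 7 beyond the sum, and 8 to 9 and 5 to 6 for the interactions. With equal library totals, log2 fold changes changed sign for XPC with B87+DMKG+Rita against B87+DMKG (-0.0188) and for RRM2B (-0.0257), SPATA18 (-0.106) and TRIAP1 (-0.0543) with Rita. That scaling moved the median of all rows by -0.254 for B87+DMKG+Rita against Control, -0.240 for it against B87+DMKG, -0.175 for Rita, -0.128 for Nutlin-3 and -0.111 for DMKG. The share of calls that were higher went from 47.2% to 30.5% for Nutlin-3, 49.4% to 30.9% for Rita, 47.3% to 31.6% for DMKG, 48.8% to 33.8% and 48.9% to 27.9% for the triple treatments against Control, 45.1% to 31.9% and 49.2% to 32.7% against B87+DMKG, 39.9% to 20.2% for B87+DMKG+Rita against Rita, 50.5% to 61.3% beyond the sum and 71.4% to 60% for B87. Quantile normalization took B87+DMKG+Nutlin-3 against B87+DMKG from 45.1% to 56%. Without libraries 1 and 2 of B87+DMKG, FDXR became 0.12 in B87+DMKG against Control and SPATA18 -0.0307 in B87+DMKG+Nutlin-3 against B87+DMKG, and without libraries 3 and 4 DDB2 became -0.0787 in B87+DMKG. Without 1 library, SPATA18 with Rita ranged from -0.0890 to 0.16, FDXR in B87+DMKG+Rita against Rita from -0.18 to 0.0037, and FDXR in Nutlin-3 against Rita from -0.0261 to 0.33. The cause was not tested. After each row's group mean was subtracted, what remained in same-numbered libraries of different groups correlated from -0.19 to 0.183, so the numbers were not taken as pairs. With the replicate number as a block, the only member call that changed was the Nutlin-3 interaction of FDXR (-0.48, adjusted p = 0.0693). Depth limits SPATA18 and ZMAT3 most.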
